A study of Mus musculus with 14 samples.

Results

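The effect of deleting *miR-29ab1* on the unchallenged mouse colon was read from RNA sequencing of 8 of the 14 mice of the study, the 4 WT mice (WT1 to WT4) and the 4 *MiR-29ab1-/-* mice (KO1 to KO4) that received no dextran sulfate sodium (DSS). These 8 were taken by their genotype label and the absence of a DSS label. The other 6 mice, 3 of each genotype, had been given DSS, an agent that injures the colon epithelium, and are used here in a single closing comparison. The titles name C57BL/6N mice, the deletion is a germline deletion and so is present in every cell type, and the study's methods describe age- and sex-matched littermates given standard food and water. RNA was extracted with TRIzol and sequenced from strand-specific libraries. Each library is given as a separate mouse, and p values measure the spread between these mice.

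MiR-29 is a family of short RNAs that bind, through a seed sequence at their 5′ end, to complementary sites in the 3′ UTRs of messenger RNAs, and lower the level or translation of those messengers. Its best known targets encode DNA methyltransferases, TET enzymes, collagens and the survival factor MCL1. The colon epithelium renews itself from stem cells at the crypt base, which give rise to absorptive colonocytes, to mucus-secreting goblet cells, to hormone-secreting enteroendocrine cells and to chemosensory tuft cells, while lymphocytes lie between these cells.

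The mature sequences are shown because the deletion removes only a part of the family. They are credited to RefSeq (GRCm38.p6), and capitals mark the seed, bases 2 to 8, which is the same in each. The cluster that was deleted encodes miR-29a at chr6:31062673-31062694 and miR-29b at chr6:31063025-31063047, both on the minus strand. A second copy of miR-29b (chr1:195037091-195037113) and miR-29c (chr1:195037600-195037621) lie on the plus strand of chromosome 1 and were not deleted.
mmu-miR-29a-3p: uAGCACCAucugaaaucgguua
mmu-miR-29b-3p: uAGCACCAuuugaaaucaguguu
mmu-miR-29c-3p: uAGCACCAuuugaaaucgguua

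A 3′ UTR site that pairs with the seed reads TGGTGCT (7mer-m8), and with a following A it reads TGGTGCTA (8mer). The sites below are printed because they lie in the genes of this comparison whose values are given with the targets, the leading genes and the amino acid transporters, and capitals mark the 8mer. They were taken from GENCODE vM21 transcripts on GRCm38, they lie in annotated 3′ UTR exons, and each is printed in the direction of the messenger RNA. Not every site of these genes is printed. *Tet2* has a further 8mer at chr3:133465116-133465123 and *Tet3* at chr6:83363777-83363784, and 7mer-m8 sites are left out. The *Pik3cg* site starts at base 5 of the 3′ UTR, so its window is shorter.
Dnmt3a, chr12:3911405-3911412, plus strand: gggaggtagcTGGTGCTAgcaccagggt
Dnmt3a, chr12:3911474-3911481, plus strand: ggtcccaagcTGGTGCTAattcctctca
Tet2, chr3:133466173-133466180, minus strand: taacattaaaTGGTGCTAcaaatggtgt
Tet3, chr6:83364336-83364343, minus strand: gtctaataaaTGGTGCTAtggtgtttca
Mcl1, chr3:95661859-95661866, plus strand: gtcttaaccaTGGTGCTAttcactgggt
Col4a1, chr8:11199761-11199768, minus strand: cgtcacaacaTGGTGCTActcccccccc
Pik3cg, chr12:32176566-32176573, minus strand: tatgTGGTGCTAgggcccaaag
Narf, chr11:121253031-121253038, plus strand: agttttcatgTGGTGCTAtctttgtagt
Slc43a2, chr11:75573020-75573027, plus strand: ttcctgttgtTGGTGCTAacccctttgt

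Summed over genes, each library held 17177177 to 18185020 reads among the WT libraries and 14231157 to 16100607 among the *MiR-29ab1-/-* libraries, so that depth and genotype cannot be told apart. A level of 3 reads corresponded to 0.165 to 0.215 CPM, the counts scaled to a common library size, which covers counting error only. The mature miRNAs were not measured by these libraries. *Mir29a* had no read in any mouse, and *Mir29b-1* had 1 read in KO3, 1 in KO4 and 0 in every other mouse. *Lncpint*, beside the deleted hairpins, had at most 23 reads among WT mice (lowest 7) and at least 1386 among *MiR-29ab1-/-* mice (highest 2889), so every library fell on the side of its label. The transcripts of this stretch (chr6:31050635-31220488) that were tested, 4 in number, are left out of all that follows.

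The labels name crypts of the small intestine, whereas the study describes colon. Colon genes were high (*Car1* at 930 to 4143 CPM, the homeobox gene *Hoxb13* at 98.8 to 226 CPM), and the small intestine genes *Lct*, *Apoa4*, *Onecut2* and *Defa17* were at no more than 0.33 CPM in any mouse, although 8 of the 13 genes of that list were tested. Of these *Fabp2*, a fatty acid binding protein of enterocytes, was at 145 to 267 CPM, *Alpi*, intestinal alkaline phosphatase, at 9.97 to 21.1 CPM, *Mmp7*, a Paneth cell protease, at 1.55 to 12.2 CPM and *Sis*, sucrase-isomaltase, at 0.338 to 10.3 CPM. The tissue is called colon here. Epithelial genes such as *Epcam* stood at 1429 to 1790 CPM. Smooth muscle was almost absent, with *Myh11*, *Acta2* and *Des* at no more than 0.417 CPM, and the summed level of 8 fibroblast markers was 5.96 to 25.2 CPM in WT and 4.19 to 36.3 CPM in *MiR-29ab1-/-* mice. In bulk samples like these, fewer cells of a type and less RNA per cell cannot be told apart. WT1 and KO4 stood apart from the other mice of their genotype: the summed level of 5 T cell markers was 65.6 CPM in WT1 and 69.98 CPM in KO4, and KO4 also had the highest level of B cell markers (14.6 CPM) and the only clear reads of the pancreatic genes *Pnlip* (9.18 CPM) and *Cpa1* (5.16 CPM). Values without WT1 or KO4 are given beside the results that moved most when either was left out.

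Genes were compared by edgeR's quasi-likelihood test on the counts, and values are log2 fold changes (log2 change, with its standard error, SE) of *MiR-29ab1-/-* over WT, negative where *MiR-29ab1-/-* mice were lower. Of 15437 genes tested, 0 passed an adjusted p under 0.05 in edgeR, the smallest being 0.0971 for *Chga*. DESeq2 on the same genes gave 10 higher and 11 lower. At an unadjusted p under 0.05, edgeR gave 563 genes (3.65%), of which 319 (2.07%) were higher and 244 (1.58%) lower. The values of the genotypes did not overlap for 311 genes (2.01%), 169 (1.09%) in the higher and 142 genes (0.92%) in the lower direction. The median log2 change of all genes was -0.00, and 49.5% of genes were above 0. Genes were described in 27 lists, each by the number of members past the unadjusted threshold and by its median, which are read against these shares of all genes. No list was tested as a set.

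**Figure D1:**
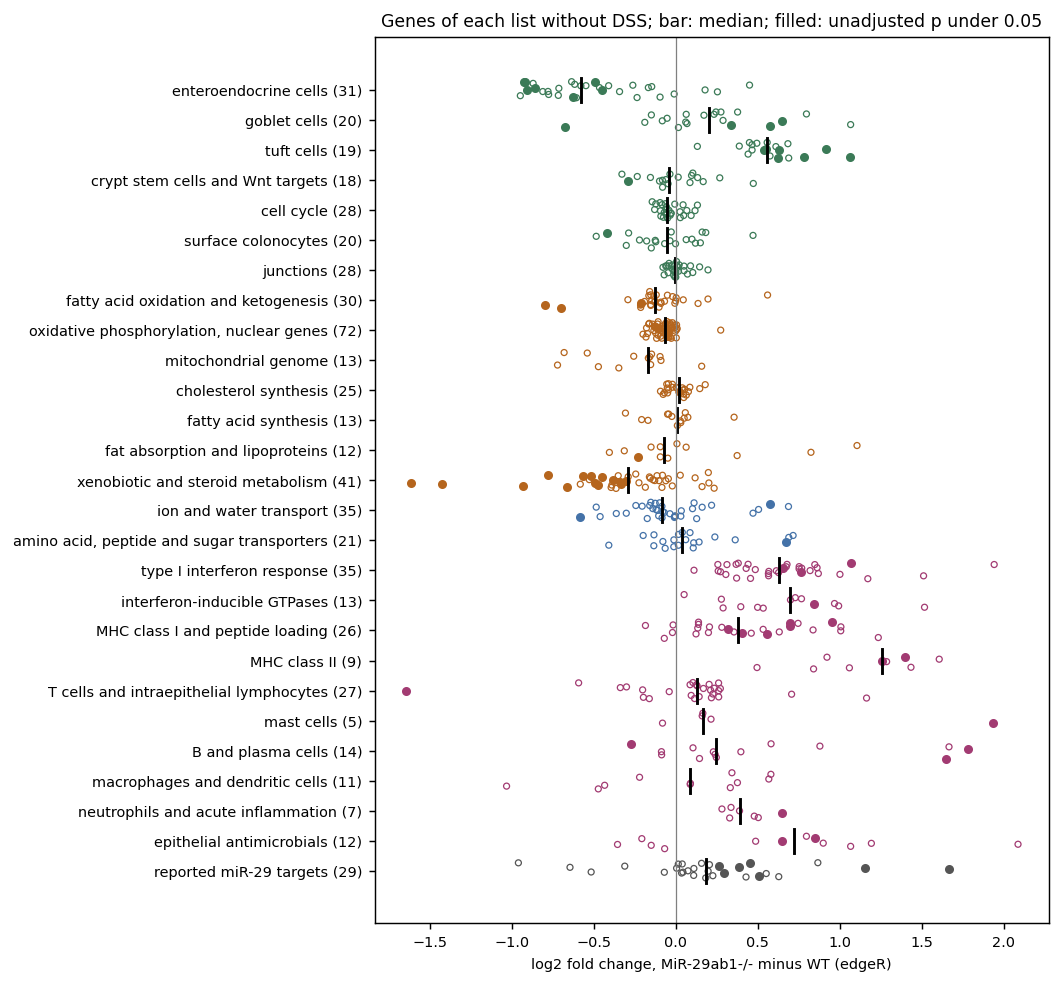
Each point is a tested gene of the list named at the left (number tested in brackets), placed on the horizontal axis by its log2 change in *MiR-29ab1-/-* over WT mice without DSS. Filled points have an unadjusted p under 0.05 and the black bar is the median, at -0.58 for enteroendocrine cells and 1.26 for MHC class II (-0.39 and 0.68 without KO4).

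Enteroendocrine genes were lower in *MiR-29ab1-/-* mice. Of 34 listed genes 31 were tested, 28 of them were lower, and 7 (22.6%, against 1.58% of all genes) were lower at an unadjusted p under 0.05, with 0 higher. The median was -0.58, and the genotypes did not overlap in 4 genes. *Chga*, which encodes the granule protein chromogranin A, was at 78.5, 52.1, 67.7 and 72.8 CPM in WT1 to WT4 and at 41.2, 32.6, 34.0 and 35.0 CPM in KO1 to KO4. Every *MiR-29ab1-/-* mouse was below every WT mouse. The log2 change was -0.93 (SE 0.13, adjusted p = 0.0971 from edgeR and 3.6e-06 from DESeq2). *Chgb*, a second granin, was at 140, 84.9, 104 and 103 CPM in WT mice and at 54.6, 63.9, 64.7 and 46.4 CPM in *MiR-29ab1-/-* mice. Again the genotypes did not overlap, and the log2 change was -0.91 (SE 0.16, adjusted p = 0.368 from edgeR and 3.7e-04 from DESeq2).

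Granule and prohormone genes other than the granins pointed the same way. *Pcsk1n*, an inhibitor of prohormone convertase, had a log2 change of -0.86 (SE 0.21) at 5.12 ± 0.895 CPM (SD, n = 4) in WT and 2.82 ± 0.244 CPM (SD, n = 4) in *MiR-29ab1-/-*, without overlap. *Syp*, a protein of small secretory vesicles, was also apart between genotypes, at -0.92, although its mean in *MiR-29ab1-/-* mice was only 0.845 CPM. The convertase *Pcsk1* had -0.49 and overlapped, KO3 (35.1 CPM) lying among the WT mice. Hormone genes were spread more widely. *Gcg*, the proglucagon gene of L cells, was at 35.6, 33.8, 40.4 and 37.5 CPM in WT mice and at 33.9, 30.1, 25.7 and 17.996 CPM in *MiR-29ab1-/-* mice (log2 change -0.45, SE 0.17), so that KO1 lay at the bottom of the WT range and KO4 lowest. *Pyy*, peptide YY of the same cells, stood at -0.58 (SE 0.27, unadjusted p = 0.063 in edgeR), again with KO4 lowest at 12.3 CPM. *Tph1*, the rate-limiting enzyme of serotonin synthesis in enterochromaffin cells, had -0.63 (SE 0.28). *Insl5*, a further hormone of colonic L cells that was added after its values were seen, was at 19.9 ± 3.75 CPM (SD, n = 4) and 19.7 ± 11.2 CPM (SD, n = 4), a log2 change of -0.01 (SE 0.37).

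The mean level of the enteroendocrine list, each gene centred on its mean over the 8 mice, was 0.05 to 0.40 on the log2 scale in WT and -0.53 to -0.10 in *MiR-29ab1-/-* mice, without overlap. KO4 was lowest. Without it the median of the list was -0.39, and without both WT1 and KO4 it was -0.33, with 6 of the tested genes then higher. The granins did not rest on KO4: over the 8 fits that each left out a mouse, *Chga* ranged from -1.03 to -0.84 and *Chgb* from -1.01 to -0.75.

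Tuft cell genes were higher in *MiR-29ab1-/-* mice. All 19 tested genes of the 21 listed had a log2 change above 0, also in each of the fits that left out a mouse, 7 (36.8%, against 2.07% of all genes) had an unadjusted p under 0.05, and the median was 0.56. *Avil*, the actin-binding protein advillin, was at 12.6, 15.4, 20.1 and 13.5 CPM in WT mice and at 23.1, 27.0, 23.6 and 32.3 CPM in *MiR-29ab1-/-* mice. The genotypes did not overlap, and the log2 change was 0.78 (SE 0.17, adjusted p = 0.741 from edgeR and 0.027 from DESeq2). *Dclk1*, a kinase used to mark these cells, was at 23.6, 41.2, 40.6 and 36.8 CPM and at 42.9, 60.0, 52.6 and 64.6 CPM, a log2 change of 0.63 (SE 0.19). WT1 lay well below the other WT mice, and KO1 was only just above the highest of them.

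The enzymes of eicosanoid synthesis that tuft cells carry were in this group, *Ptgs1* (cyclooxygenase 1) at 0.92 (SE 0.23) and *Alox5* (5-lipoxygenase) at 0.54 (SE 0.23), each without overlap. *Gfi1b*, a transcription factor of the lineage, had 1.06 (SE 0.34) at a low level of 0.768 ± 0.245 CPM (SD, n = 4) and 1.61 ± 0.459 CPM (SD, n = 4). *Trpm5*, the cation channel of taste signalling, was at 31.9 ± 7.98 CPM (SD, n = 4) and 46.7 ± 9.03 CPM (SD, n = 4), and *Siglecf* stood at 0.62. *Sh2d6*, the tuft cell gene with the highest FPKM, had 0.69 and did not pass the unadjusted threshold. The list's mean level was -0.73 to 0.01 in WT and 0.05 to 0.61 in *MiR-29ab1-/-* mice, so that the genotypes just missed each other. WT1 was lowest and KO4 highest. Without both, the median was 0.32 and 3 genes had an unadjusted p under 0.05.

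**Figure D2:**
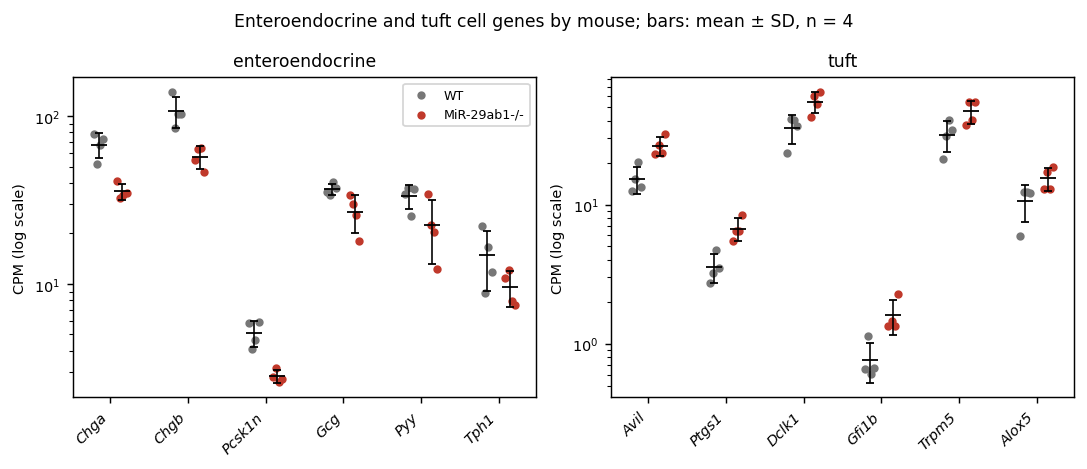
Levels of 6 enteroendocrine genes and 6 tuft cell genes in CPM on a log axis, each point a mouse without DSS and each bar the mean ± SD of 4 mice. *Chga* and *Chgb* were lower in every *MiR-29ab1-/-* mouse (red) than in every WT mouse (grey), and *Avil* and *Dclk1* were higher in every one.

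Goblet cell genes had a median closer to that of all genes and differed in both directions. Of the 20 listed and tested, 15 were higher, and the median was 0.20. At an unadjusted p under 0.05, 3 (15%, against 2.07% of all genes) were higher and 1 (5%, against 1.58%) was lower. *Clca1*, a secreted protease of the mucus layer and among the most abundant messengers of the tissue, was at 10073, 27962, 18714 and 21660 CPM in WT mice and at 35228, 33966, 25531 and 27848 CPM in *MiR-29ab1-/-* mice, a log2 change of 0.64 (SE 0.28). WT1 was far below the other WT mice and WT2 overlapped the *MiR-29ab1-/-* mice. *Tpsg1*, a transmembrane serine protease, had 0.34 and did not overlap. The chloride and bicarbonate channel *Best2* had 0.58. *B3gnt6*, the enzyme that builds the core 3 glycans of mucins, was lower, at 68.8 ± 24.1 CPM (SD, n = 4) and 43.1 ± 6.32 CPM (SD, n = 4), with -0.68 (SE 0.25). *Muc2*, the gel-forming mucin, was added after its values were seen and ranged from 22.1 to 164 CPM in WT and from 43.8 to 160 CPM in *MiR-29ab1-/-* mice, a log2 change of -0.08 (SE 0.62) that is far smaller than the spread between mice. Without WT1 the goblet median was 0.06.

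Genes listed for secreted antimicrobial products of the epithelium were higher in part, and no protein was measured. Of 12 tested genes (14 listed), 8 were higher, 2 (16.7%, against 2.07% of all genes) at an unadjusted p under 0.05, with a median of 0.72. *Pla2g2a*, a phospholipase gene, was at 15.03, 29.6, 12.8 and 16.4 CPM in WT mice and at 29.7, 32.0, 33.5 and 37.6 CPM in *MiR-29ab1-/-* mice. Its log2 change was 0.85 (SE 0.24). The genotypes did not overlap, but WT2 and KO1 were nearly equal. *Reg4*, a C-type lectin of deep crypt secretory cells, had 0.65 (SE 0.25). *Ang4*, an angiogenin with antibacterial activity, was at 883 to 3643 CPM in WT and 3627 to 5464 CPM in *MiR-29ab1-/-* mice (0.80, SE 0.38), which did not pass the unadjusted threshold.

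Stem cell, proliferation and junction genes were close to the median of all genes. The list of crypt stem cell and Wnt target genes had a median of -0.04 over 18 tested genes. At an unadjusted p under 0.05, 0 were higher and 1 (5.56%, against 1.58% of all genes) was lower. This was *Smoc2*, a secreted matrix protein of stem cells, at 39.1 ± 3.00 CPM (SD, n = 4) and 31.9 ± 3.56 CPM (SD, n = 4), with -0.29. *Lgr5*, the receptor that marks the stem cells, and *Mki67*, the proliferation antigen Ki-67, were added after their values were seen. *Lgr5* had -0.33 (SE 0.22) and *Mki67* -0.06 (SE 0.14), both with overlap. For 28 cell cycle genes the median was -0.05 and none had an unadjusted p under 0.05 in edgeR (6 were lower without KO3), the log2 changes running from -0.14 to 0.13. The 28 tested junction genes had a median of -0.00, from -0.08 to 0.20, again with 0 past the threshold.

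Surface colonocyte genes had a median of -0.05 over 20 genes, and 1 (5%, against 1.58% of all genes) was lower at an unadjusted p under 0.05. *Guca2a*, which encodes guanylin, the peptide that drives fluid secretion through guanylate cyclase C, was at 871, 651, 756 and 858 CPM in WT mice and at 536, 596, 652 and 560 CPM in *MiR-29ab1-/-* mice. Only WT2 and KO3 overlapped, at 651 and 652 CPM. The log2 change was -0.42 (SE 0.12). *Car1*, carbonic anhydrase 1, ran from 2449 to 4143 CPM and from 930 to 3719 CPM, with -0.49 (SE 0.38) and wide overlap.

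**Figure D3:**
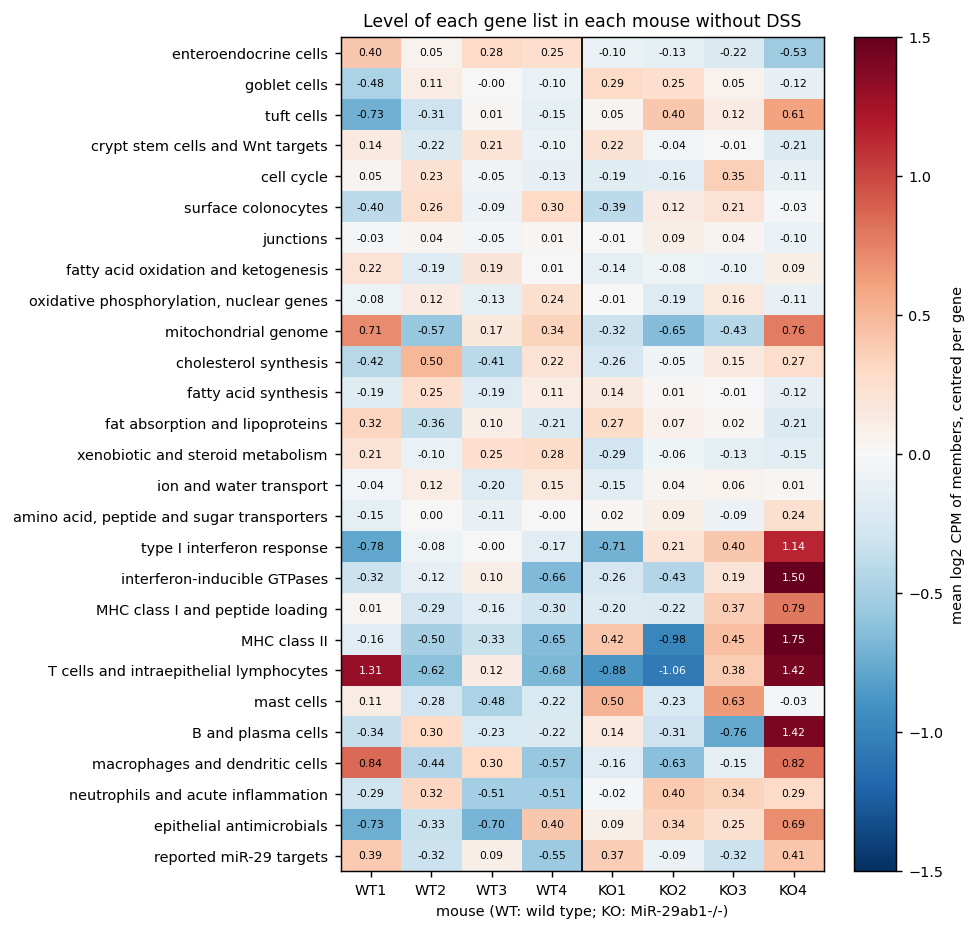
Mean level of each gene list (rows) in each mouse without DSS (columns), in log2 CPM with each gene centred on its mean over the 8 mice, so that 0 is the mean of all mice. Enteroendocrine cells were below 0 in every *MiR-29ab1-/-* mouse and above 0 in every WT mouse, whereas the T cell list was highest in WT1 (1.31) and KO4 (1.42).

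Enzymes of xenobiotic and steroid metabolism had more members lower at an unadjusted p under 0.05 than any other list. Of 46 listed genes 41 were tested, 35 were lower, and 14 (34.1%, against 1.58% of all genes) were lower at an unadjusted p under 0.05, with 0 higher. The median was -0.29. In 7 of the 41 every *MiR-29ab1-/-* mouse was below every WT mouse, as in 0.92% of all genes. *Akr1b8*, an aldo-keto reductase, was at 68.6, 48.4, 54.1 and 53.5 CPM in WT mice and at 28.1, 34.7, 39.4 and 28.4 CPM in *MiR-29ab1-/-* mice, without overlap. Its log2 change was -0.78 (SE 0.14, adjusted p = 0.368 from edgeR and 0.0022 from DESeq2). *Akr1b8* lies at chr6:34354119-34368463, on the chromosome of the deletion. Within 20 Mb of the left-out stretch, 11 of 182 tested genes (6.04%) had an unadjusted p under 0.05, against 3.63% on other chromosomes, and whether sequence linked to the deleted locus takes part in the value of *Akr1b8* was not tested.

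Phase 2 enzymes, which attach a soluble group to their substrate, made up much of the list. *Sult1d1*, a sulfotransferase, was at 234, 211, 261 and 261 CPM in WT mice and at 167, 174, 188 and 156 CPM in *MiR-29ab1-/-* mice. Every *MiR-29ab1-/-* mouse was below every WT mouse, with -0.49 (SE 0.10, adjusted p = 0.613 from edgeR and 0.0056 from DESeq2). The other sulfotransferases past the unadjusted threshold were *Sult1a1* (-0.38) and *Sult1c2* (-0.57), both with overlap. The glutathione transferases *Gstm3* (-0.47) and *Gstp1* (-0.52) were apart between genotypes, *Gstp1* at 6.66 to 7.99 CPM against 4.82 to 5.16 CPM. The glucuronosyltransferase *Ugt2b5* had -0.34. These genes belong to families of close copies, and the authors' counting could have split reads among them.

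Phase 1 enzymes oxidise, reduce or hydrolyse their substrates. The 6 members of the whole list with values above 0 did not pass the unadjusted threshold, and those named next from the list were lower at it. *Por*, the reductase that passes electrons to all microsomal cytochrome P450 enzymes, was at 121, 119, 114 and 135 CPM in WT mice and at 89.4, 98.1, 106 and 103 CPM in *MiR-29ab1-/-* mice. The genotypes did not overlap and the log2 change was -0.30 (SE 0.09). *Cyp2c55*, the cytochrome P450 with the highest level of the list (345 FPKM), was at 913, 574, 1329 and 831 CPM and at 397, 691, 594 and 225 CPM, a log2 change of -0.93 (SE 0.37). KO2 and KO3 overlapped WT2. *Cyp2w1* had -1.62 (SE 0.44) without overlap at 9.24 ± 3.39 CPM (SD, n = 4) and 3.00 ± 1.76 CPM (SD, n = 4), and *Cyp4b1* had -1.43 with overlap. The carboxylesterase *Ces2a* (-0.67), the quinone reductase *Nqo1* (-0.45) and the steroid dehydrogenase *Hsd17b2* (-0.34) were lower as well. Outside the list, *Fmo5*, a flavin monooxygenase, was at 33.5, 24.9, 30.6 and 34.0 CPM in WT mice and at 15.5, 20.2, 11.8 and 20.4 CPM in *MiR-29ab1-/-* mice, with -0.86 (SE 0.18, adjusted p = 0.613 from edgeR and 0.015 from DESeq2). *Fmo5* was named among the lower genes first by p without overlap between genotypes. Neither its direction nor the lack of overlap is therefore a separate result.

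The mean level of the metabolic list was -0.10 in WT2 and 0.21 to 0.28 in the other WT mice, and it was -0.29 to -0.06 in *MiR-29ab1-/-* mice. WT2 thus lay among the *MiR-29ab1-/-* mice. The median ranged from -0.37 without WT2 to -0.22 without KO1, and the number lower at an unadjusted p under 0.05 from 18 to 7, the latter without WT3. Without KO4 it was -0.26.

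**Figure D4:**
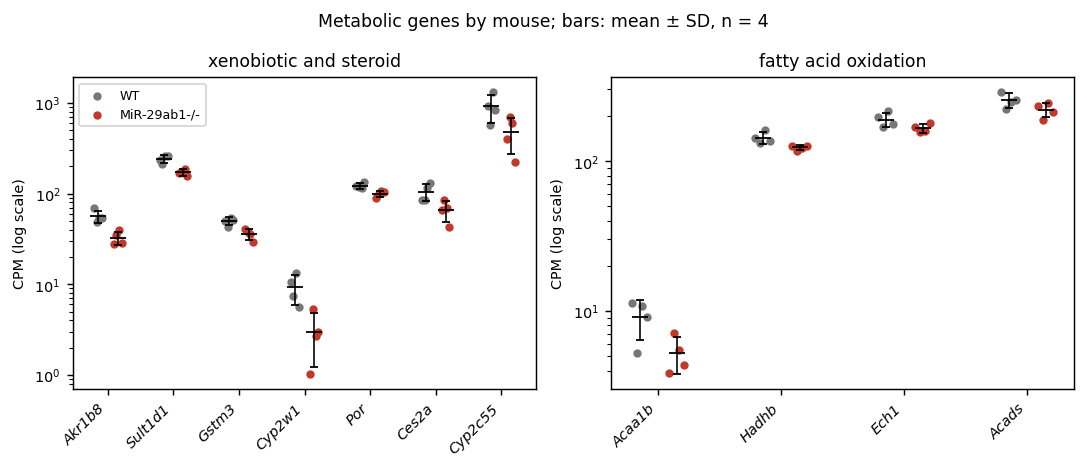
Levels of 7 genes of xenobiotic and steroid metabolism and 4 genes of fatty acid oxidation in CPM on a log axis, each point a mouse without DSS and each bar the mean ± SD of 4 mice. *Akr1b8*, *Sult1d1* and *Por* were lower in every *MiR-29ab1-/-* mouse (red) than in every WT mouse (grey), whereas *Acaa1b* and *Cyp2c55* overlapped.

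Fatty acid oxidation and ketogenesis had a median of -0.13 over 30 tested genes, with 25 lower. At an unadjusted p under 0.05, 3 (10%, against 1.58% of all genes) were lower and 0 higher. Without WT1 the median was -0.04 with 1 gene lower at that threshold, and without WT2 it was -0.18 with 6. *Acaa1b*, a peroxisomal thiolase, was at 11.3, 5.25, 10.8 and 9.14 CPM in WT mice and at 3.85, 7.13, 5.52 and 4.37 CPM in *MiR-29ab1-/-* mice. WT2 lay among the *MiR-29ab1-/-* mice. Its log2 change was -0.80 (SE 0.27). *Hadhb*, a subunit of the mitochondrial trifunctional protein, had -0.21 (SE 0.09), without overlap. *Slc27a4*, a transporter of long fatty acids, was the gene of the fat absorption list past the unadjusted threshold, with -0.23. That list had a median of -0.07 over 12 tested genes, and 8.33% were lower at the threshold, against 1.58% of all genes.

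Nuclear genes of oxidative phosphorylation had a median of -0.07 over 72 genes and 67 were lower, but none had an unadjusted p under 0.05 in edgeR, and the number higher ran from 1 to 33 over the fits that left out a mouse. *Atp5a1*, a subunit of ATP synthase, had -0.18 (SE 0.09). The 13 genes of the mitochondrial genome had a median of -0.17, which was -0.61 without KO4 and 0.01 without KO2. They took 5.71% to 13.9% of all reads in a mouse, with the highest shares in WT1 and KO4. Cholesterol synthesis (25 genes, median 0.02) and fatty acid synthesis (13 genes, median 0.01) had 0 genes past the threshold in edgeR. *Srebf2*, the transcription factor of the cholesterol pathway, had 0.09 (SE 0.10), and *Srebf1*, its counterpart for fatty acids, -0.21 (SE 0.11).

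Transport genes showed no shift of the group, and few members passed the unadjusted threshold. For ion and water transport the median was -0.08 over 35 tested genes. At an unadjusted p under 0.05, 1 (2.86%, against 2.07% of all genes) was higher and 1 (2.86%, against 1.58%) lower, close to those shares. *Scnn1b*, the beta subunit of the epithelial sodium channel, was the lower one, at 12.6, 6.56, 8.71 and 9.47 CPM in WT mice and at 5.48, 7.13, 6.47 and 5.81 CPM in *MiR-29ab1-/-* mice (log2 change -0.58, SE 0.21). KO2 was above WT2. *Best2*, given above with the goblet cells, was the higher one. The water channels *Aqp8* (0.47, SE 0.23) and *Aqp1* (-0.46, SE 0.21) pointed in opposite directions and did not pass the threshold.

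Transporters of amino acids, peptides and sugars had a median of 0.04 over 21 tested genes. *Slc43a2*, which carries large neutral amino acids, was the gene past the unadjusted threshold (4.76%, against 2.07% of all genes). It was at 16.02, 11.03, 17.0 and 11.2 CPM in WT mice and at 20.6, 19.3, 18.9 and 29.2 CPM in *MiR-29ab1-/-* mice. The genotypes did not overlap and KO4 was far above the other *MiR-29ab1-/-* mice. The log2 change was 0.67 (SE 0.19), and 0.51 without KO4. *Slc1a5*, a glutamine transporter, had -0.13 and *Slc6a14*, a broad amino acid transporter of the colon, -0.20, each with overlap.

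Type I interferon response genes had a median of 0.63, with 35 of 35 tested genes higher, but mice of the same genotype differed by more than the genotypes did. The mean level of the list was -0.78, -0.08, -0.00 and -0.17 in WT1 to WT4 and -0.71, 0.21, 0.40 and 1.14 in KO1 to KO4. KO1 was as low as WT1. The number of genes at an unadjusted p under 0.05 was 3 (8.57%, against 2.07% of all genes) in the full fit, 32 without KO1 and 1 without KO4, where the median was 0.24. Without both WT1 and KO4 the median was 0.10. *Rsad2*, which encodes the antiviral enzyme viperin, was at 7.16, 6.38, 10.8 and 11.9 CPM in WT mice and at 12.5, 19.1, 23.9 and 20.5 CPM in *MiR-29ab1-/-* mice. This gene did not overlap and did not rest on KO4, with 1.07 (SE 0.25) over all mice and 1.03 without KO4. *Cmpk2*, its neighbour on chromosome 12, was at 16.3 to 27.7 CPM and 19.5 to 49.9 CPM (0.76, SE 0.28), and *Xaf1* had 0.65 (SE 0.26).

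Interferon-inducible GTPases, which defend against intracellular pathogens, also depended on KO4, with a median of 0.70 over 13 tested genes and 0.13 without KO4, when 9 were higher. *Igtp* was at 17.0, 23.4, 26.4 and 20.1 CPM in WT mice and at 26.6, 30.4, 41.6 and 56.9 CPM in *MiR-29ab1-/-* mice (0.84, SE 0.24), and 0.60 without KO4. It overlaps *Irgm2* on chromosome 11, and reads of the pair may not have been kept apart by the counting. *Irgm2* itself had 0.40 (SE 0.29).

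Genes of MHC class I and peptide loading had a median of 0.38 over 26 tested genes, with 22 higher and 6 (23.1%, against 2.07% of all genes) at an unadjusted p under 0.05. The 6 were the immunoproteasome subunits *Psmb9* (0.69) and *Psmb8* (0.69), the peptide transporter genes *Tap1* (0.95) and *Tap2* (0.40), *B2m* (0.56), which encodes the light chain, and *Tapbpl* (0.32), a peptide editor. *Tap1* was at 61.7, 57.2, 72.3 and 47.7 CPM in WT mice and at 68.0, 74.5, 122 and 199 CPM in *MiR-29ab1-/-* mice. KO3 and KO4 were high and KO1 lay within the WT range. *B2m* was also highest in KO4 (982 CPM) and KO3 (686 CPM), with KO1 at 506 CPM above the WT range of 392.1 to 487 CPM and KO2 at 424 CPM inside it. Without KO4 the median of the list was 0.18, with 2 genes past the threshold.

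MHC class II genes, which epithelial cells can express under interferon gamma and which B cells, dendritic cells and macrophages express as a rule, had a median of 1.26 over 9 tested genes. Of these 2 (22.2%, against 2.07% of all genes) were higher at an unadjusted p under 0.05. Without KO4 the median was 0.68 with 1 gene past the threshold, and without KO2 it was 1.51 with 7. *Ciita*, the regulator of the class II genes, was at 4.02, 5.43, 5.77 and 4.07 CPM in WT mice and at 9.87, 5.30, 8.63 and 22.4 CPM in *MiR-29ab1-/-* mice (1.26, SE 0.40). *Cd74*, the invariant chain, was at 108, 78.5, 93.5 and 71.3 CPM and at 201, 48.0, 229 and 448 CPM (1.40, SE 0.58). KO2 was below every WT mouse, KO1 and KO3 were about level with each other and KO4 was highest. Without KO4 *Ciita* had 0.72 and *Cd74* 0.86. The summed level of the B cell markers was 3.85 to 8.77 CPM in WT and 2.54 to 14.6 CPM in *MiR-29ab1-/-* mice, highest in KO4, and the part of B cells in the class II values was not tested.

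T cell and intraepithelial lymphocyte genes did not separate the genotypes. Of 27 tested genes (32 listed), 19 were higher, and the median was 0.13. At an unadjusted p under 0.05, 1 gene (3.70%, against 1.58% of all genes), *Trdc*, was lower. The mean level of the list was 1.31, -0.62, 0.12 and -0.68 in WT1 to WT4 and -0.88, -1.06, 0.38 and 1.42 in KO1 to KO4. WT1 and KO4 were high, WT3 and KO3 intermediate, and the remaining mice low in either genotype. The median of the list was 0.72 without WT1 and -0.60 without KO4, and it was also below 0 without WT2 (-0.095) or WT4 (-0.077). *Trdc*, the constant segment of the T cell receptor delta chain, was at 9.25 CPM in WT1 and at 1.37 to 2.44 CPM in the other WT mice, against 0.473 to 1.90 CPM in *MiR-29ab1-/-* mice (-1.65, SE 0.72). *Ifng*, the gene of interferon gamma, had 5, 2, 3 and 0 reads in WT mice and 0, 2, 7 and 26 reads in *MiR-29ab1-/-* mice. Only KO4 stood clear of the WT mice, and a two-sided exact permutation test on log2 CPM gave p = 0.457, where 0.0286 is the smallest that 4 mice against 4 allow.

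Among other immune genes, *Cma1* differed most. It encodes mast cell chymase and was at 1.27, 1.91, 1.61 and 2.62 CPM in WT mice and at 7.51, 10.8, 5.01 and 4.95 CPM in *MiR-29ab1-/-* mice, without overlap. The log2 change was 1.93 (SE 0.33, adjusted p = 0.334 from edgeR and 7.5e-05 from DESeq2). The mast cell genes *Cpa3*, *Ms4a2* and *Mcpt4* were at no more than 0.661 CPM in any mouse and were not tested, and 5 of the 14 genes of the mast cell list were. *Kit*, which also marks deep crypt secretory cells, stood at 0.16 (SE 0.22). *Mcpt1*, also of the list, had -0.08 (SE 0.61) between overlapping genotypes, whose means were 7.41 CPM (WT) and 7.00 CPM (*MiR-29ab1-/-*). *Tpsb2* had 0.16 (SE 0.40), again with overlap. Of the 5 tested genes 4 were higher, only *Cma1* at an unadjusted p under 0.05, and the median was 0.16.

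Of 14 tested genes of B and plasma cells, 2 (14.3%, against 2.07% of all genes) were higher at an unadjusted p under 0.05, and 1 (7.14%, against 1.58%) was lower. The median was 0.24, or -0.16 without KO4. *Igha*, the heavy chain of IgA, was at 12.3, 12.3, 13.1 and 9.14 CPM in WT mice and at 43.2, 17.3, 8.76 and 77.9 CPM in *MiR-29ab1-/-* mice (1.65, SE 0.63), and *Igkc*, the kappa light chain, had 1.78 (SE 0.76). KO4 and KO1 were high while KO3 was below every WT mouse. Without KO4 the values were 0.98 for *Igha* and 0.68 for *Igkc*. *Sdc1*, syndecan 1, which the epithelium also expresses, was lower at 214 ± 19.3 CPM (SD, n = 4) and 177 ± 3.23 CPM (SD, n = 4), with -0.28. *Pigr*, the epithelial receptor that carries IgA into the lumen, was at 6673 ± 627 CPM (SD, n = 4) and 7173 ± 1084 CPM (SD, n = 4), with 0.10 (SE 0.15).

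Macrophage and dendritic cell genes had 0 of 11 tested genes past the unadjusted threshold in edgeR (median 0.09, or -0.45 without KO4). The list of neutrophils and acute inflammation had 7 of 20 genes with enough reads, all of them higher, with a median of 0.39. *Duoxa2*, which matures the epithelial oxidase DUOX2, was the gene past the threshold (14.3% of those tested, against 2.07% of all genes). It was at 18.2, 40.4, 21.4 and 18.1 CPM in WT mice and at 42.4, 44.9, 38.5 and 27.5 CPM in *MiR-29ab1-/-* mice (0.65, SE 0.28). WT2 lay among the *MiR-29ab1-/-* mice. *Duox2* had 0.33 (SE 0.23), *Nos2*, the inducible nitric oxide synthase, 0.50 (SE 0.32), and *Saa1*, serum amyloid A1, 0.28 (SE 0.31).

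Reported targets of miR-29 were higher in part. Of 34 listed genes 29 were tested, 24 were higher, and 7 (24.1%, against 2.07% of all genes) were higher at an unadjusted p under 0.05, with 0 lower. The median was 0.18, from 0.05 without WT4 to 0.26 without WT3, and 0.07 without KO4. *Dnmt3a*, a de novo DNA methyltransferase with the sites printed above, was at 68.9, 54.6, 60.5 and 45.2 CPM in WT mice and at 80.1, 78.7, 74.5 and 80.2 CPM in *MiR-29ab1-/-* mice. The *MiR-29ab1-/-* mice lay close together and above every WT mouse, with 0.45 (SE 0.12). Its relative *Dnmt3b* had 0.50 (SE 0.20), at 3.99 ± 0.457 CPM (SD, n = 4) and 5.67 ± 0.996 CPM (SD, n = 4), also without overlap.

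*Tet2*, which oxidises methylated cytosine, was at 32.6, 33.8, 30.0 and 29.2 CPM in WT mice and at 35.5, 44.0, 35.4 and 48.9 CPM in *MiR-29ab1-/-* mice, with 0.38 (SE 0.12) and no overlap. *Tet3*, of the same family, had 0.30 (SE 0.11), with KO1 inside the WT range. *Mcl1*, a survival factor of the BCL2 family, was at 261, 330, 308 and 340 CPM and at 366, 387, 388 and 345 CPM, with 0.26 (SE 0.11) and a gap of few CPM between WT4 and KO4. The matrix genes *Col4a1*, a chain of basement membrane collagen, and *Sparc* had 1.15 (SE 0.32) and 1.67 (SE 0.66), at 2.26 CPM and 3.98 CPM in *MiR-29ab1-/-* mice. The fibroblast markers given above had overlapping ranges. The summed level of 6 endothelial markers was 14.6 to 18.9 CPM in WT and 17.7 to 23.8 CPM in *MiR-29ab1-/-* mice, and of these *Vwf* (0.53) and *Plvap* (0.83) did not overlap. The part of either cell type in the matrix values was not tested. Over the whole list of targets the mean centred level was 0.39, -0.32, 0.09 and -0.55 in WT1 to WT4 and 0.37, -0.09, -0.32 and 0.41 in KO1 to KO4, so that the genotypes overlapped although single targets did not.

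Across 12754 tested genes with an annotated 3′ UTR, the log2 change was higher with a seed site. The median was -0.01 for 10797 genes without a site, 0.02 for 1555 genes with a 7mer-m8 and 0.05 for 402 genes with an 8mer, and 47.4%, 57.6% and 66.2% of these genes were higher in *MiR-29ab1-/-* mice. Of the genes with an 8mer, 29 (7.21%) were higher and 3 (0.75%) lower at an unadjusted p under 0.05, against 1.82% and 1.7% of genes without a site. For 299 genes with 2 or more sites of either kind the median was 0.08, and 21 (7.02%) were higher and 0 lower at that threshold. Genes with a site have long 3′ UTRs. The median was 2667 bases for an 8mer and 3730 bases for 2 or more sites, against 994 bases without a site. The 1573 genes without a site whose 3′ UTR was at least as long as the median for an 8mer had a median log2 change of 0.01, and 54.0% were higher. At the unadjusted threshold 1.91% of them were higher and 1.46% lower. The difference in mean level between genes with an 8mer and genes without a site was 0.02, -0.06, 0.00 and -0.12 on the log2 scale in WT1 to WT4 and 0.06, 0.06, -0.01 and 0.05 in KO1 to KO4. KO3 lay below WT1 and WT3, so that the genotypes overlapped in this mouse.

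**Figure D5:**
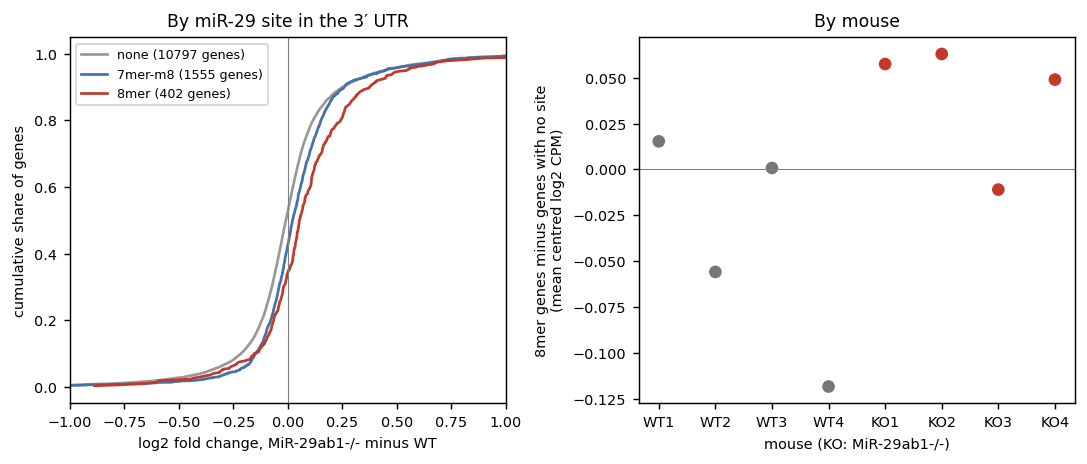
Left, the cumulative share of genes by log2 change in *MiR-29ab1-/-* over WT mice without DSS, for genes with an 8mer, a 7mer-m8 or no miR-29 site in the 3′ UTR. Right, the mean centred log2 CPM of genes with an 8mer minus that of genes without a site, a point for each mouse, highest at 0.06 in KO1 and KO2 and lowest at -0.12 in WT4.

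Among the genes outside the lists that came first by p, *Pik3cg* and *Narf* carried an 8mer printed above. *Pik3cg*, the catalytic subunit of phosphoinositide 3-kinase gamma, was at 14.9, 15.5, 18.5 and 15.9 CPM in WT mice and at 27.7, 29.1, 19.996 and 27.3 CPM in *MiR-29ab1-/-* mice, with 0.69 (SE 0.14, adjusted p = 0.015 from DESeq2). *Narf*, at 52.5 ± 5.62 CPM (SD, n = 4) and 71.8 ± 7.03 CPM (SD, n = 4), had 0.45 (SE 0.11). Without a printed site, *Mov10*, an RNA helicase associated with the miRNA silencing complex, was at 51.8, 44.2, 50.0 and 37.8 CPM in WT mice and at 66.5, 69.7, 69.3 and 81.6 CPM in *MiR-29ab1-/-* mice (0.64, SE 0.11, adjusted p = 0.368 from edgeR and 0.0024 from DESeq2). These 3 were named among the higher genes without overlap between genotypes, so neither their direction nor the lack of overlap is a separate result.

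The other higher genes named by p were *P2rx7* (0.76), an ATP-gated ion channel, *Ly6e* (0.57), an interferon-inducible surface protein, *Lrmp* (0.50), a membrane protein of the endoplasmic reticulum, *Cap2* (1.11), a regulator of actin, *Bcas1* (0.40), and *Lrrc26* (0.43), a subunit of BK potassium channels. The lower ones were *Paqr5* (-0.50), a membrane progestin receptor, *Meis3* (-0.93), a homeobox factor, *2610528A11Rik* (-0.59), which encodes a ligand of the lymphocyte receptor GPR15, *Rab3c* (-1.57), a GTPase of regulated secretion, *Vezf1* (-1.20), a zinc finger factor, *Ugt8a* (-1.85), an enzyme of galactolipid synthesis, and *Hist1h2bq* (-1.91), a histone gene whose reads may be shared with near-identical copies. In all of them the genotypes did not overlap, which is part of the rule by which they were named. The largest of these values lay near the level of 3 reads. Mean levels in WT and *MiR-29ab1-/-* mice were 3.68 and 1.01 CPM for *Ugt8a*, 1.97 and 0.511 CPM for *Hist1h2bq*, and 1.42 and 0.470 CPM for *Rab3c*. Their lowest values were 0.203 CPM (*Ugt8a*, KO1), 0.215 CPM (*Hist1h2bq*, KO4) and 0.270 CPM (*Rab3c*, KO1). *Ly6e* ran from 391 to 520 CPM in WT and from 593 to 742 CPM in *MiR-29ab1-/-* mice. *2610528A11Rik* was at 246, 186, 237 and 212 CPM and at 135, 127, 156 and 168 CPM, a difference of the opposite sign and similar size.

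The genotype effect was set beside that after DSS in 1 model of 16193 genes over all 14 mice. The difference of the effects passed an adjusted p under 0.05 for 0 genes in edgeR (smallest 0.985), and 641 genes (3.96%) had an unadjusted p under 0.05. In this model *Chga* had -0.93 without DSS and -0.44 after DSS, *Akr1b8* -0.78 and 0.21, and *Cma1* 1.93 and -1.01. The median of the enteroendocrine list was -0.58 without DSS and -0.29 after DSS, that of the tuft cell list 0.55 and 0.14, that of xenobiotic and steroid metabolism -0.29 and -0.08, and that of the type I interferon response 0.63 and -0.24. Of 31 enteroendocrine genes, 3 differed between the conditions at an unadjusted p under 0.05, and of 36 interferon genes 0 did. In other lists more genes differed, with 11 of 13 for the mitochondrial genome (median -0.17 without DSS and 1.32 after DSS), 6 of 18 for crypt stem cells (-0.04 and -0.39) and 4 of 13 for antimicrobials (0.79 and 0.09).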

How the data were processed

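RNA-seq of 14 mice was used, of which 8 without DSS carried the comparison. The authors aligned strand-specific reads, and the deposited tables hold raw counts per gene, used for every test, and FPKM, used only to compare levels between genes. Per the submitters' processing notes the tools were HISAT2 and DESeq2; versions, the genome build and the strand setting of the counting are not given in the sources used here. Deposited log2 fold change and p-value columns hold the authors' own comparisons and were not used, nor were 6 FPKM columns of the DSS table. Of 55889 genes listed, 55144 had identifiers in GENCODE vM21 (GRCm38), the source of coordinates and 3′ UTRs, and 99.47% of these had the same start and end.

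Genes were kept by filterByExpr (minimum count 10, minimum total 15), scaled by TMM and tested with edgeR 4.0.16 (quasi-likelihood, Benjamini-Hochberg adjustment) under R 4.3.3 with limma 3.58.1, and with DESeq2 1.42.0 as an alternative. The pipeline was tested on simulated data. CPM are TMM-scaled. Of the genes that passed the filter, the 4 in the left-out stretch of chromosome 6 were removed from every count. Named genes were those first by p without overlap between genotypes, and the members of the lists at an unadjusted p under 0.05 or among the highest by FPKM. The lists and members were chosen with earlier results of these data known. Alternatives were DESeq2, RLE size factors, no filter, a floor of 10 counts in each mouse, coding genes alone, thinned libraries, the replicate number as a block and leaving out each mouse. Some members of the lists are counted but not reported here by name.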

Additional observations from a re-analysis of the deposited data

Results flagged for a closer look

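Each value here lay far from the other 3 mice of its genotype, by the ratio of its gap to the group's range (Dixon's 95% critical value). Of 258 groups of 4 mice checked 11 were flagged, where chance flags about 1 in 20, and no explanation was tested. Among WT mice, WT1 was apart in *Tpsg1* (90.8 CPM), *Alox5* (5.95 CPM) and *Trdc* (9.25 CPM), WT2 in *Gfi1b* (1.13 CPM), *Duoxa2* (40.4 CPM) and the mean level of the xenobiotic and steroid metabolism list (-0.10 centred log2 CPM), and WT4 in *Sdc1* (243 CPM). Among *MiR-29ab1-/-* mice, KO3 was apart in *Pcsk1* (35.1 CPM) and the mean level of the cell cycle list (0.35 centred log2 CPM), and KO4 in *Gfi1b* (2.29 CPM) and *Slc43a2* (29.2 CPM).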

How the results depend on the processing

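The count of genes at an adjusted p under 0.05 was 0 in edgeR and 10 higher and 11 lower in DESeq2, where 917 genes had no adjusted p and stayed without one. Without a filter on low counts it was 4 higher and 4 lower, and the genes at an unadjusted p under 0.05 were 700 higher and 396 lower. Over the fits that each left out a mouse, 0 to 1 genes were higher and 0 to 1 lower at an adjusted p under 0.05. The median of each list was set against that list's own spread between mice, so lists with a wide spread passed easily. Over the fits that left out a mouse, the T cell median ran from -0.60 to 0.72 (spread 1.05). That of interferon-inducible GTPases ran from 0.13 to 0.88 (spread 0.66). Among the alternatives planned beforehand, only the enteroendocrine median moved past its spread (0.17). It ran from -0.59 to -0.39 over the same fits, the last without KO4, and stayed below 0. Without both WT1 and KO4, an alternative added after seeing the data, it was -0.33 and that of mast cells 0.64. Over the fits that left out a mouse the median of mast cells ran from -0.050 to 0.50. The sign turned in *Insl5*, which ran from -0.43 without KO1 to 0.22 without KO4 (0.17 without both WT1 and KO4), and in *Muc2*, which ran from -0.52 without KO2 to 0.33 without WT3. *Mki67* ran from -0.16 to -0.0054 and was 0.014 without both WT1 and KO4. The cause was not tested.

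With the replicate number as a block, 334 genes were higher and 206 lower at an unadjusted p under 0.05, and *Muc2* turned to 0.030. Mice of the same number did not deviate together (correlations of -0.03, 0.15, -0.19 and -0.13), so the numbers were not taken as pairs. With depth and genotype aligned, thinning every library to the smallest gave 310 higher and 230 lower genes. Depth limits the lists of mast cells (5 of 14 genes tested), neutrophils and acute inflammation (7 of 20) and macrophages and dendritic cells (11 of 18). Of the T cell and intraepithelial lymphocyte list 27 of 32 genes were tested.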
